A study of Mus musculus with 2 samples.

Results

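The genes described here are nephronectin (*Npnt*), its main receptor subunit *Itga8*, and 8 further integrin subunit genes of stromal cells, *Itga1*, *Itga5*, *Itga7*, *Itga9*, *Itgav*, *Itgb1*, *Itgb3* and *Itgb5*. They are 10 of the 32285 genes in the files, and all 10 were found by symbol. They were chosen by name, with earlier results of these data known. *Npnt* and *Itga8* were already known for their large ratios in alveolar myofibroblast (ALMF)-like cells and *Npnt* for its high level in alveolar fibroblast-like cells. Their levels and ratios are therefore given as a description, without a test. Neither the genes nor the cells of a mouse are replicates of a condition.

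The study asked what deletion of *Hhip*, which encodes a Hedgehog-binding inhibitor, does in the lung of growing mice. Lung cells of 1 control and 1 *Gli1 HHIPCKO* mouse at P14 were measured by droplet single-cell RNA-seq. Both mice carried *Gli1creERT*/+ and *Hhip*flox/flox, so that Cre activity followed *Gli1* expression. The *Gli1 HHIPCKO* mouse was given tamoxifen on 3 days from birth, and the control mouse oil at the matching times. Stromal cells sorted for the lack of CD31, CD45 and CD326 were mixed 3:1 with epithelial cells, so immune and endothelial cells had been sorted against. The methods name a 5′ kit and the sample labels a 3′ kit, so UMIs are not divided by transcript length and levels are compared for 1 gene across cells, not between genes.

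The control library held 10999 barcodes and 43291709 UMIs, at a median of 3531 UMIs per cell. In the *Gli1 HHIPCKO* library 52338969 UMIs came from 12350 barcodes, at a median of 3720. The libraries shared 193 barcodes, 1.75% of those in the control library and 1.56% of those in the other. After filtering, 10917 control and 12115 *Gli1 HHIPCKO* cells were clustered together, without the integrin genes, *Npnt* or *Hhip*, and clusters were named from marker genes with "-like" added. Naming left 24 clusters without a name, which held 31.8% of control cells and 31.6% of *Gli1 HHIPCKO* cells. Of these, 6 stromal clusters are described by a pair of their leading genes.

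*Hhip* itself was at 332 UMIs per 1000000 UMIs (CPM) over all control cells and at 89.3 CPM over all *Gli1 HHIPCKO* cells, the log2 ratio being −1.89 (−1.94 to −1.85). All ratios are *Gli1 HHIPCKO* over control, and all intervals are exact 95% intervals that cover counting error only. In ductal myofibroblast (DMF)-like cells *Hhip* was at 2229 CPM in the control and 354 CPM in *Gli1 HHIPCKO*, and in alveolar fibroblast-like cells at 142 and 53.4 CPM. The tags counted need not lie in the deleted stretch, so these values do not show how many cells were recombined. *Xist*, which is transcribed from the inactive X chromosome, had 12 UMIs in the control and 14062 in the *Gli1 HHIPCKO* library. The libraries thus differ in a sex-linked gene as well as in treatment, and with 1 mouse per condition sex, mouse, library, tamoxifen and the deletion cannot be told apart in any ratio below.

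Nephronectin is an extracellular matrix protein with an RGD motif that is deposited at basement membranes, and the α8β1 integrin, made from *Itga8* and *Itgb1*, is its best known receptor. An integrin is a pair of an α and a β chain. The β1 chain pairs with α1, α5, α7, α8, α9 and αv, while the β3 and β5 chains pair with αv. Nephronectin and α8β1 are known for their part in kidney development, and *Itga8* and *Npnt* are used as markers of alveolar fibroblasts in the mouse lung.

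Cells were read in 10 named classes and the 6 stromal clusters. ALMF-like cells numbered 1087 in the control and 236 in the *Gli1 HHIPCKO* library, DMF-like cells 1158 and 1772, and alveolar fibroblast-like cells 424 and 1536. The DMF-like class was made of a pair of clusters that were nearly separate by library. The cluster led by *Aspn* and *Enpp2* held 1104 control and 36 *Gli1 HHIPCKO* cells, and the cluster led by *Igf1* and *Tgfbi* held 54 and 1736. An unnamed cluster led by *Egr1* and *Fos*, with 503 and 634 cells, scored 0.676 for DMF and 0.625 for ALMF markers. Because the border between these myofibroblast-like cells differed between libraries, values are also given for ALMF-like, DMF-like and *Egr1*-*Fos* cells pooled, 2748 control and 2642 *Gli1 HHIPCKO* cells. That pooling was chosen after the data were seen. The AT2-like class was also uneven by library. Its cluster led by *Chil1* and *Lcn2* held 892 control and 2392 *Gli1 HHIPCKO* cells, and its cluster led by *Sftpc* and *Cxcl15* held 2094 and 429. Ratios in AT2-like cells thus set largely different clusters against each other.

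Counts of genes with a ratio of at least 2-fold use genes with a UMI in 10% or more of either library's cells of the class and 50 or more UMIs over both libraries. In DMF-like cells 2 of 7 members that passed this filter were past 2-fold, *Npnt* and *Itga8*, both up, where 3.53% of all genes were past it. In the *Egr1*-*Fos* cluster the count was 2 of 8, against 3.47% of all genes, and in the pooled myofibroblast-like cells 2 of 7, against 2.99%. Again these were *Npnt* and *Itga8*, both up. In each of these, both genes reached the detection minimum only in the *Gli1 HHIPCKO* library, where they were higher. For that reason, and because these genes were chosen with such ratios known, nothing is read from the counts. In ALMF-like cells *Npnt* and *Itga8* did not pass the filter, and 0 of the 5 members that did were past 2-fold (2.85% of all genes).

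In alveolar fibroblast-like cells 0 of 7 members were past 2-fold, against 2.33% of all genes, and in adventitial fibroblast-like cells 0 of 8, against 3.23%. In pericyte-like cells 1 of 7 was past it, *Itga9*, which was lower, against 1.60% of all genes. In mesothelial-like cells the count was 0 of 6 (3.00% of all genes), in AT2-like cells 0 of 4 (1.09%) and in endothelial-like cells 0 of 4 (6.95%). Ciliated-like cells had 1 of 4, *Npnt*, up, against 2.00% of all genes. In red cell-like cells 4 of 6 members were up, *Npnt*, *Itga8*, *Itga1* and *Itgb1*, where 25.4% of all genes were past 2-fold. Red cells are not known to make these genes, and the median over the genes with enough UMIs in both libraries was itself shifted there by 0.50 in log2, so red cell-like values are used below only as a background.

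Among the unnamed stromal clusters, the one led by *Lamc3* and *C1qtnf3* had 2 of 6 members past 2-fold, *Npnt* and *Itga8*, both up, against 4.44% of all genes. The cluster led by *Actg2* and *Cnn1*, contractile genes of smooth muscle, had 1 of 8, *Itga8*, which was lower, against 5.24%. The cluster led by *Rbp4* and *Dpep1* had 1 of 8, *Itga1*, up, against 2.86%. Neither the *Ccn5*-*Ccl19* cluster, with 0 of 8 against 2.70% of all genes, nor the *Acta2*-*Timp4* cluster, with 0 of 7 against 4.39%, had a member past 2-fold. Among members that passed the filter, *Itga8* is thus the one found past 2-fold in opposite directions in stromal clusters.

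**Figure D1:**
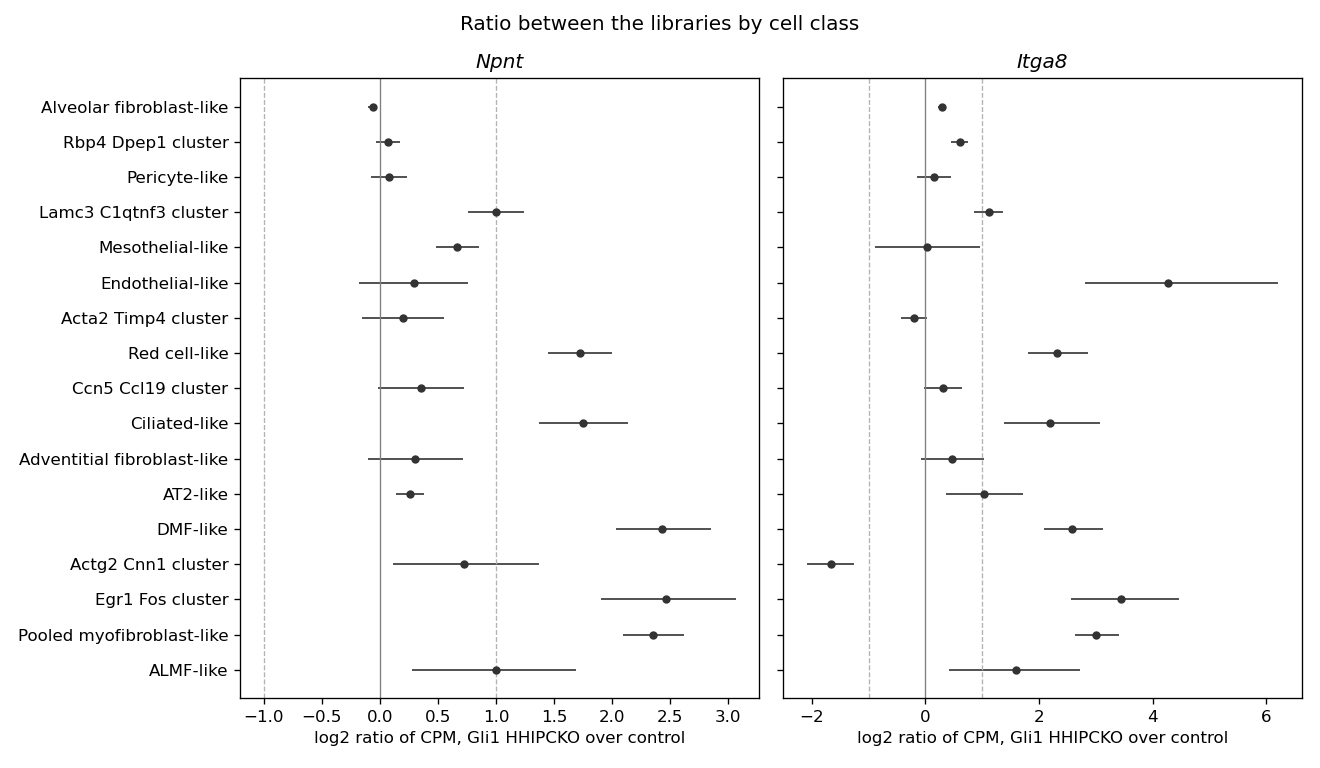
Log2 ratio of *Npnt* and of *Itga8*, *Gli1 HHIPCKO* over control, in each class and cluster, with exact 95% intervals for counting error and 1 mouse per condition. *Npnt* and *Itga8* lie right of 1 in DMF-like cells, at 2.43 and 2.58, and near 0 in alveolar fibroblast-like cells, at −0.06 and 0.30.

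The ligand gene *Npnt* was most abundant in alveolar fibroblast-like cells, at 5187 CPM (5131 to 5242) over both libraries. The *Rbp4*-*Dpep1* cluster followed at 1294 CPM (1248 to 1341) and pericyte-like cells at 693 CPM (658 to 730). Alveolar fibroblast-like cells stood far above all others in each library, and the *Rbp4*-*Dpep1* cluster came next in each. *Lamc3*-*C1qtnf3* cells at 488 CPM (448 to 529), mesothelial-like cells at 477 CPM (447 to 508) and endothelial-like cells at 476 CPM (406 to 555) did not differ beyond these intervals over both libraries. In the *Gli1 HHIPCKO* library alone, *Lamc3*-*C1qtnf3* cells, at 728 CPM (647 to 817), did not differ from pericyte-like cells, at 707 CPM (662 to 753), so the place of the latter holds for the control and the pooled values. Lower levels were found in *Acta2*-*Timp4* cells, at 281 CPM, red cell-like cells, at 261 CPM, *Ccn5*-*Ccl19* cells, at 172 CPM, and ciliated-like cells, at 148 CPM.

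At the low end of the order of *Npnt* levels, adventitial fibroblast-like cells were at 74.3 CPM, AT2-like cells at 71.1 CPM, DMF-like cells at 69.7 CPM, *Actg2*-*Cnn1* cells at 67.8 CPM and *Egr1*-*Fos* cells at 56.2 CPM. ALMF-like cells were at 21.3 CPM, but the libraries contribute unequally to these classes. In the control alone *Egr1*-*Fos*, ALMF-like and DMF-like cells, at 15.6, 18.0 and 18.5 CPM, did not differ beyond their intervals. Myofibroblast-like cells thus held less *Npnt* per UMI than red cell-like cells over both libraries, and their order among themselves depended on the library.

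**Figure D2:**
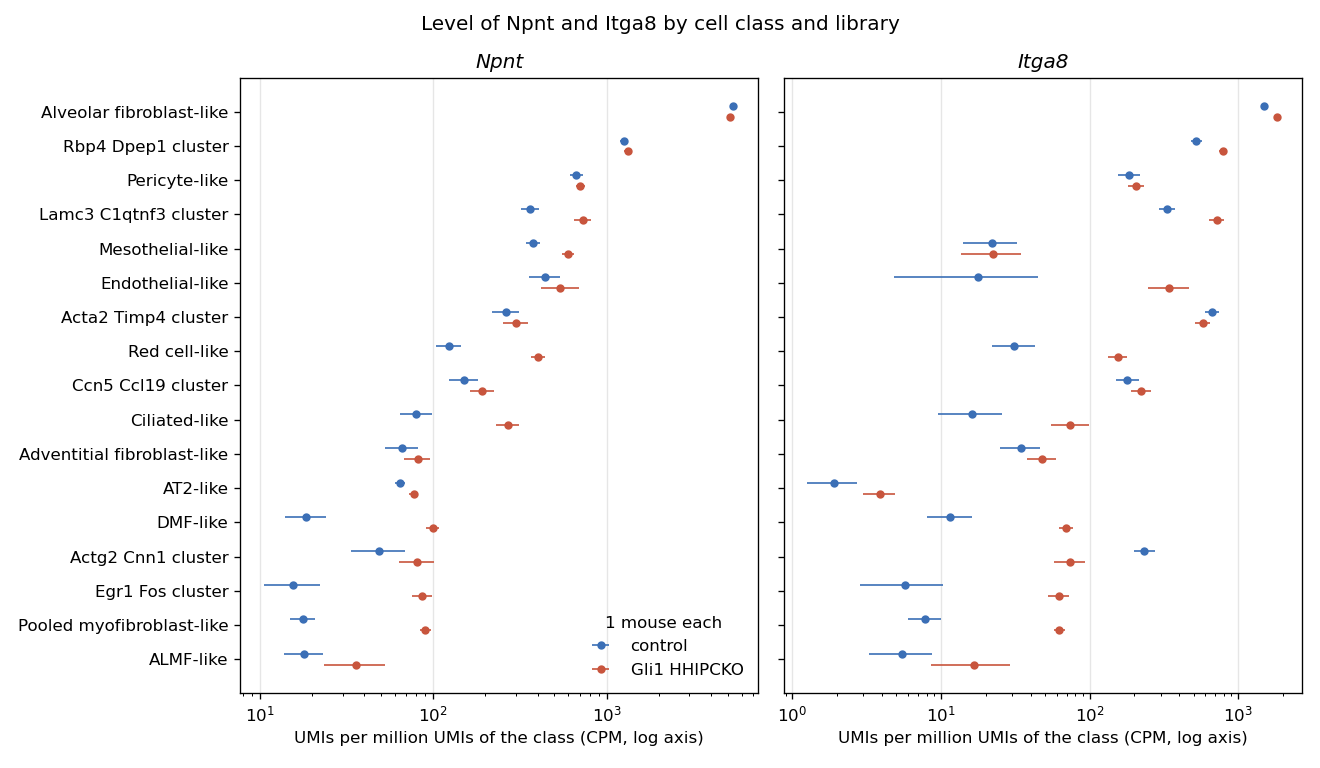
Level of *Npnt* and of *Itga8* in CPM on a log axis, by class or cluster and library, with exact Poisson 95% intervals, 1 mouse per condition. Alveolar fibroblast-like cells are highest for both genes in both libraries, with *Npnt* at 5365 CPM in the control and 5141 CPM in *Gli1 HHIPCKO*, and ALMF-like and DMF-like cells are near the low end.

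Between the mice, *Npnt* in alveolar fibroblast-like cells was at 5365 CPM in control (7079 UMIs) and 5141 CPM in *Gli1 HHIPCKO* (26570 UMIs), the log2 ratio being −0.06 (−0.10 to −0.02). The sign of this small value turned when the libraries were clustered separately, at 0.01, and when genes were centred within each library, at 0.34. The spread over these cells was also alike. The 10th percentile, the median and the 90th percentile of CPM per cell, over cells with at least 2000 UMIs, were 2450, 5010 and 9050 in control and 2430, 4940 and 8360 in *Gli1 HHIPCKO*. With each cell thinned to 2000 UMIs, 99.7% of control and 99.8% of *Gli1 HHIPCKO* alveolar fibroblast-like cells held an *Npnt* UMI. The level of *Npnt* per cell in its most abundant class was therefore close in the mice, while the class itself made up 3.88% of control cells and 12.7% of *Gli1 HHIPCKO* cells.

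Of the other classes with a high *Npnt* level, some had close values in the mice and others did not. In the *Rbp4*-*Dpep1* cluster *Npnt* was at 1262 CPM in the control and 1325 CPM in *Gli1 HHIPCKO*, and in pericyte-like cells at 670 and 707 CPM, the log2 ratio being 0.08 (−0.08 to 0.23). In mesothelial-like cells, which line the lung surface, it was at 377 and 600 CPM, the log2 ratio being 0.67 (0.48 to 0.86). In *Lamc3*-*C1qtnf3* cells it was at 364 and 728 CPM, the log2 ratio being 1.00 (0.76 to 1.24). The *Lamc3*-*C1qtnf3* and mesothelial-like values were thus higher in *Gli1 HHIPCKO* beyond the counting interval. In mesothelial-like cells the ratio turned to −0.38 with the red cell-like level of each library subtracted, an alternative chosen after seeing the data. The level subtracted rests largely on few cells. Of the red cell-like *Npnt* UMIs, 71.9% lay in 5 control cells and 73.9% in 15 *Gli1 HHIPCKO* cells. Alveolar fibroblast markers were higher in mesothelial-like cells as well, with 5 of 12 up at least 2-fold. Their sum was 804 CPM in the control and 1356 CPM in *Gli1 HHIPCKO*. *Mfap4*, at 235 CPM, and *Ces1d*, at 423 CPM, were the most abundant of them, *Slc7a10* was at 0 in *Gli1 HHIPCKO*, and their part in the result was not tested. The same subtraction moved *Npnt* in pericyte-like cells to −0.86 and in endothelial-like cells to −1.21. The endothelial-like ratio, 0.30 as reported, was also −0.76 as a mean over cells and 2.43 with the libraries clustered separately, so its direction depended on the setting. In AT2-like cells *Npnt* was at 64.3 and 77.1 CPM, but these cells came largely from different clusters in each library. Of the 13 alveolar fibroblast markers 7 were up there, their sum being 370 CPM in the control and 487 CPM in *Gli1 HHIPCKO*. *Ces1d* was the most abundant, at 237 and 332 CPM, and their part in the result was not tested. In adventitial fibroblast-like cells *Npnt* was at 65.7 and 81.2 CPM, in *Ccn5*-*Ccl19* cells at 150 and 192 CPM and in *Acta2*-*Timp4* cells at 262 and 300.2 CPM.

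In DMF-like cells *Npnt* was at 18.5 CPM in control (56 UMIs) and 99.7 CPM in *Gli1 HHIPCKO* (517 UMIs), the log2 ratio being 2.43 (2.03 to 2.86). In the *Egr1*-*Fos* cluster it was at 15.6 CPM (30 UMIs) and 86.0 CPM (225 UMIs), the log2 ratio being 2.46 (1.91 to 3.06). In ALMF-like cells it was at 18.0 CPM (59 UMIs) and 36.0 CPM (26 UMIs), the log2 ratio being 1.00 (0.27 to 1.69). All 3 were higher in the *Gli1 HHIPCKO* library, at levels far under those of alveolar fibroblast-like cells. Pooled, these cells held 17.6 CPM in control (145 UMIs) and 90.1 CPM in *Gli1 HHIPCKO* (768 UMIs), the log2 ratio being 2.35 (2.10 to 2.62).

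How that ratio splits over ALMF-like and DMF-like cells depended on the clustering. With each library clustered separately, *Npnt* in ALMF-like cells (969 control and 856 *Gli1 HHIPCKO*) was at 17.0 and 148 CPM, the log2 ratio being 3.12 (2.69 to 3.58), and the ratio in DMF-like cells was 1.11. Pooled over both classes, that clustering gave 2.33. The pooled ratio was lowest at resolution 2, at 1.70, which lies below its counting interval. Within the *Igf1*-*Tgfbi* cluster the 54 control cells were at 68.9 CPM of *Npnt* (9 UMIs) and the *Gli1 HHIPCKO* cells at 101 CPM, the log2 ratio being 0.55 (−0.38 to 1.69). The few control cells that fell in the cluster typical of the *Gli1 HHIPCKO* library were thus not distinguishable from its *Gli1 HHIPCKO* cells in *Npnt*. In the *Aspn*-*Enpp2* cluster *Npnt* was at 16.2 CPM in the control (47 UMIs) and had 0 UMIs in the 36 *Gli1 HHIPCKO* cells, for which 3 counts allow a log2 ratio of at most 1.25. Neither DMF-like cluster taken alone thus had the class's ratio of 2.43, which sets control cells of mainly one cluster against *Gli1 HHIPCKO* cells of the other.

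*Itga8*, the α chain that binds nephronectin, followed a similar order at its top. It was at 1757 CPM (1725 to 1789) over both libraries in alveolar fibroblast-like cells, 660 CPM (628 to 694) in the *Rbp4*-*Dpep1* cluster and 619 CPM (571 to 671) in *Acta2*-*Timp4* cells. *Lamc3*-*C1qtnf3* cells were at 462 CPM. Below the alveolar fibroblast-like cells the order differed by library. In the control *Acta2*-*Timp4* cells, at 663 CPM (593 to 740), lay above *Rbp4*-*Dpep1* cells, at 523 CPM (482 to 567), and *Lamc3*-*C1qtnf3* cells, at 331 CPM. In *Gli1 HHIPCKO* the *Rbp4*-*Dpep1* cells, at 793 CPM (743 to 845), lay above *Acta2*-*Timp4* cells, at 576 CPM (511 to 647), with *Lamc3*-*C1qtnf3* cells at 715 CPM (635 to 804). *Ccn5*-*Ccl19* cells at 201 CPM (179 to 225) and pericyte-like cells at 198 CPM (179 to 217) did not differ beyond their intervals either. *Actg2*-*Cnn1* cells were at 138 CPM, endothelial-like cells at 130 CPM and red cell-like cells at 92.0 CPM. The endothelial-like level joins 17.7 CPM in the control (4 UMIs) with 342 CPM in *Gli1 HHIPCKO* (41 UMIs in 8 of 55 cells), too few UMIs for the filter. The log2 ratio was 4.28 (2.81 to 6.22), the largest *Itga8* ratio of any class at the joint clustering. With the libraries clustered separately it was 2.85, under the 4.53 of ALMF-like cells. Alveolar fibroblast markers moved with it in endothelial-like cells, with 12 of 13 up at least 2-fold. They summed to 847 CPM in the control and 4795 CPM in *Gli1 HHIPCKO*, *Mfap4* being the most abundant at 265 and 2643 CPM and none at 0. Their part in that ratio was not tested.

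The remaining *Itga8* levels were 48.0 CPM in DMF-like, 41.7 CPM in adventitial fibroblast-like, 38.1 CPM in *Egr1*-*Fos*, 37.2 CPM in ciliated-like and 22.1 CPM in mesothelial-like cells. ALMF-like cells, at 7.51 CPM, and AT2-like cells, at 2.94 CPM, were lowest. Compared with *Npnt*, *Itga8* therefore ranked higher in the *Acta2*-*Timp4* cells and lower in mesothelial-like cells.

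*Itga8* in alveolar fibroblast-like cells was at 1485 CPM in the control and 1826 CPM in *Gli1 HHIPCKO*, the log2 ratio being 0.30 (0.23 to 0.37). Over single cells with at least 2000 UMIs the median was 1380 CPM in the control and 1750 CPM in *Gli1 HHIPCKO*, so the median cell was higher too. In the *Rbp4*-*Dpep1* cluster it was at 523 and 793 CPM, the log2 ratio being 0.60 (0.45 to 0.75), and in *Lamc3*-*C1qtnf3* cells at 331 and 715 CPM, the log2 ratio being 1.11 (0.86 to 1.36). These 3 *Itga8*-rich groups of fibroblast-like cells were all higher in the *Gli1 HHIPCKO* mouse. Pericyte-like cells were at 185 and 205 CPM, the log2 ratio being 0.14 and, with the red cell-like level subtracted, −1.62.

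Contractile clusters differed from this. In *Actg2*-*Cnn1* cells *Itga8* was at 233 CPM in control (153 UMIs) and 73.5 CPM in *Gli1 HHIPCKO* (71 UMIs), the log2 ratio being −1.67 (−2.09 to −1.25). Of the alveolar fibroblast markers, 3 of 10 were down and 2 up at least 2-fold there. Their sum was 1040 CPM in the control and 770 CPM in *Gli1 HHIPCKO*, *Mfap4* being the most abundant at 825 and 588 CPM and *Wnt2* at 0 in both. The 12 DMF markers summed to 5281 and 7283 CPM there, with 4 of 12 up, *Aspn* the most abundant at 2419 and 3042 CPM and none at 0. The part of these markers in the *Itga8* ratio was not tested. The share of these cells with an *Itga8* UMI, thinned to 2000 UMIs, was 28.2% in control and 12.3% in *Gli1 HHIPCKO*. *Npnt* was not lower there, at 48.8 and 80.7 CPM, the log2 ratio being 0.73 (0.12 to 1.37). In *Acta2*-*Timp4* cells *Itga8* was at 663 and 576 CPM, the log2 ratio being −0.20 (−0.44 to 0.03). Of the contractile clusters, the lower *Itga8* level was thus seen in the *Actg2*-*Cnn1* cells, whose markers scored for airway smooth muscle and nearly as high for DMF. *Ccn5*-*Ccl19* cells, with *Notch3* and *Heyl* among their leading genes, were at 179 and 222 CPM.

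In DMF-like cells *Itga8* was at 11.6 CPM in control (35 UMIs) and 69.2 CPM in *Gli1 HHIPCKO* (359 UMIs), the log2 ratio being 2.58 (2.08 to 3.13). In the *Egr1*-*Fos* cluster it was at 5.72 CPM (11 UMIs) and 61.9 CPM (162 UMIs), the log2 ratio being 3.44 (2.56 to 4.47). In ALMF-like cells it was at 5.50 CPM (18 UMIs) and 16.6 CPM (12 UMIs), the log2 ratio being 1.60 (0.41 to 2.73). The direction was the same as for *Npnt* in each. Pooled, the values were 7.78 CPM (64 UMIs) and 62.5 CPM (533 UMIs), the log2 ratio being 3.01 (2.63 to 3.40).

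As with *Npnt*, the split depended on the clustering. With the libraries clustered separately, *Itga8* in ALMF-like cells was at 4.50 CPM in the control and 104 CPM in *Gli1 HHIPCKO*, the log2 ratio being 4.53 (3.73 to 5.46), and the ratio in DMF-like cells was 1.51. Within the *Igf1*-*Tgfbi* cluster *Itga8* was at 84.2 CPM in control (11 UMIs) and 70.3 CPM in *Gli1 HHIPCKO*, the log2 ratio being −0.26 (−1.12 to 0.75). For this gene too, then, the control cells of that cluster were not distinguishable from its *Gli1 HHIPCKO* cells. In the *Aspn*-*Enpp2* cluster *Itga8* was at 8.28 CPM in the control (24 UMIs) and had 0 UMIs in the 36 *Gli1 HHIPCKO* cells. There 3 counts allow a log2 ratio of at most 2.22, which lies within the interval of the class, 2.58 (2.08 to 3.13), so the class's ratio is excluded in the *Igf1*-*Tgfbi* cluster and not in this one.

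Free RNA can put UMIs of an abundant gene into any droplet, so shares of cells are set beside those of cells that should lack the genes. With each cell thinned to 2000 UMIs, 2.80% of pooled myofibroblast-like cells held an *Npnt* UMI in control and 10.8% in *Gli1 HHIPCKO*. In red cell-like cells the *Npnt* shares were 7.25% and 19.0%, and in AT2-like cells 10.8% and 12.6%. For *Itga8* the shares were 1.62% and 8.0% in pooled myofibroblast-like cells, 2.90% and 15.2% in red cell-like cells and 0.559% and 0.653% in AT2-like cells. Median depths before thinning, in control and *Gli1 HHIPCKO*, were 2857 and 3076 UMIs in the pooled cells, 4998 and 5299 in red cell-like cells and 4822.5 and 5730 in AT2-like cells. The myofibroblast-like shares of both genes were below those of red cell-like cells in each library, so they are not shown to lie above background and their ratios are not read as a difference in expression. Red cell-like cells held far more AT2 marker RNA, however. The 10 AT2 markers summed to 39200 CPM (control) and 54360 CPM (*Gli1 HHIPCKO*) there, against 2379 and 1467 CPM in the pooled cells. Whether the background of the pooled cells is as high as the red cell-like level was not tested. The *Itga8* share of the *Gli1 HHIPCKO* pooled cells did lie above that of AT2-like cells and that of mesothelial-like cells, 2.26%. In the control the mesothelial-like share was 2.24%, the median depths being 3550 UMIs in control and 2447.5 in *Gli1 HHIPCKO*. The classes meant as background thus differed among themselves, and the source of these UMIs was not tested.

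Ciliated-like cells, with median depths of 3869 and 4509 UMIs, gave thinned *Npnt* shares of 8.51% in control and 18.6% in *Gli1 HHIPCKO* and *Itga8* shares of 2.66% and 6.19%. Both genes were thus found in a larger share of ciliated-like and red cell-like cells in the *Gli1 HHIPCKO* library, which also held more alveolar fibroblast-like cells. Alveolar fibroblast markers moved with them in ciliated-like cells, with 8 of 13 up, a sum of 1222 CPM in the control and 2299 CPM in *Gli1 HHIPCKO*, *Ces1d* (548 CPM) and *Mfap4* (951 CPM) the most abundant and none at 0, and 75.3% of the *Npnt* UMIs of *Gli1 HHIPCKO* ciliated-like cells lay in 6 cells with at least 10. Their part in the *Npnt* ratio of ciliated-like cells was not tested. Part of the red cell-like signal lay in few cells as well. In the *Gli1 HHIPCKO* library 73.9% of the *Npnt* UMIs of red cell-like cells were in 15 cells with at least 10 of them, while in the pooled myofibroblast-like cells 1.30% were, in 1 cell. With doublet-like cells left out, an alternative chosen after seeing the data, red cell-like cells still gave thinned *Npnt* shares of 3.66% (control) and 18.9% (*Gli1 HHIPCKO*) and *Itga8* shares of 1.83% and 16.0%.

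The ratio of *Npnt* to *Itga8* UMIs differed between these classes. In the *Gli1 HHIPCKO* library it was 2.82 (2.75 to 2.88) in alveolar fibroblast-like cells, 2.61 (2.20 to 3.12) in red cell-like cells and 1.44 (1.29 to 1.61) in pooled myofibroblast-like cells. The interval of the red cell-like cells held the alveolar fibroblast-like value, as did that of ALMF-like cells, 2.17 (1.06 to 4.71). The interval of the pooled myofibroblast-like cells did not. Neither did those of DMF-like cells, 1.44 (1.26 to 1.65), and *Egr1*-*Fos* cells, 1.39 (1.13 to 1.71). In the control the alveolar fibroblast-like value was 3.61. It lay outside the intervals of pooled myofibroblast-like cells, 2.27 (1.68 to 3.09), and DMF-like cells, 1.6 (1.03 to 2.52). It lay inside those of ALMF-like cells, 3.28 (1.91 to 5.91), and *Egr1*-*Fos* cells, 2.73 (1.33 to 6.03). What these ratios say of the source of the UMIs was not tested. Other *Gli1 HHIPCKO* ratios were 1.67 in the *Rbp4*-*Dpep1* cluster, 1.10 in *Actg2*-*Cnn1* cells, 1.02 in *Lamc3*-*C1qtnf3* cells and 0.521 in *Acta2*-*Timp4* cells.

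In myofibroblast-like and red cell-like cells the summed markers of alveolar fibroblasts were higher in *Gli1 HHIPCKO*, as both genes were. The 13 markers of that list summed to 741 CPM in pooled control and 1545 CPM in pooled *Gli1 HHIPCKO* myofibroblast-like cells, with *Mfap4* the most abundant at 521 and 1078 CPM, and 7 of the 13 were up at least 2-fold, counted among markers with more than 3 UMIs. In DMF-like cells the sum was 1095 and 1683 CPM, with 6 of 13 up, and in *Egr1*-*Fos* cells 672 and 1494 CPM, with 8 of 12 up and *Slc7a10* at 0 in *Gli1 HHIPCKO*. In ALMF-like cells it was 453 and 736 CPM, with 4 of 12 up and *Ces1d* and *Slc7a10* at 0 in *Gli1 HHIPCKO*, and *Mfap4* (199 CPM) the most abundant in control and *Cxcl14* (308 CPM) in *Gli1 HHIPCKO*. In red cell-like cells it was 968 and 2974 CPM, with 13 of 13 up, where 25.4% of all genes were past 2-fold. That share, like the other shares of all genes, uses the stricter filter of the member counts. No such share was computed at the filter of the marker counts. Alveolar fibroblast-like cells, for comparison, summed to 34820 and 36940 CPM. Their part in the result was not tested.

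Among pooled myofibroblast-like cells with at most 1 UMI of these markers, 1451 control and 710 *Gli1 HHIPCKO* cells, *Npnt* was at 10.4 CPM (42 UMIs) and 33.6 CPM (63 UMIs), the log2 ratio being 1.70 (1.11 to 2.30). *Itga8* in these cells was at 3.45 CPM (14 UMIs) and 24.5 CPM (46 UMIs), the log2 ratio being 2.83 (1.94 to 3.81). Levels of both genes were thus lower in pooled cells with few alveolar markers, and their pooled ratios stayed past 2-fold. In the classes taken apart the intervals were wide. With at most 1 marker UMI, the *Npnt* log2 ratio was 1.47 (0.49 to 2.56) in DMF-like and 1.70 (0.51 to 2.80) in ALMF-like cells, and that of *Itga8* 3.67 (1.67 to 6.79) and 1.11 (−0.98 to 2.84). With 0 marker UMIs, *Npnt* was at 1.00 (−0.47 to 2.58) in DMF-like and 2.54 (0.73 to 4.25) in ALMF-like cells. For *Itga8* in cells with 0 marker UMIs, ALMF-like cells were at 1.54 (−1.01 to 3.59) and DMF-like cells had 0 UMIs in the control and 11 in *Gli1 HHIPCKO*. This selection was also chosen after the data were seen.

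Cells with UMIs of both genes, thinned to 2000 UMIs, made up 92.3% of control and 94.5% of *Gli1 HHIPCKO* alveolar fibroblast-like cells. Ligand and receptor RNA were thus found in the same cells of this class. The share was 46.2% and 61.6% in the *Rbp4*-*Dpep1* cluster, 24.8% and 45.2% in *Lamc3*-*C1qtnf3* cells, 25.5% and 27.9% in *Acta2*-*Timp4* cells and 16.6% and 23.0% in pericyte-like cells. In pooled myofibroblast-like cells it was 0.219% and 3.20%, below the 2.42% and 12% of red cell-like cells. For the classes with higher shares, the *Npnt* share alone was 71.6% and 70.9% in pericyte-like cells (median depths 1718.5 and 1809 UMIs), above every background share given here.

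*Itgb1*, which encodes the β1 chain shared by most of these receptors, was found in every class. Over both libraries it ranged from 184 CPM in AT2-like cells to 2330 CPM (2265 to 2396) in pericyte-like cells. Between these lay *Actg2*-*Cnn1* cells at 1151 CPM, alveolar fibroblast-like cells at 1103 CPM, ALMF-like cells at 885 CPM, DMF-like cells at 924 CPM, mesothelial-like cells at 597 CPM and adventitial fibroblast-like cells at 497 CPM. The partner chain of α8 was thus present in both *Itga8*-rich and *Itga8*-poor cells, and its order did not follow that of *Itga8*. In DMF-like cells *Itgb1* was at 716 CPM in the control and 1045 CPM in *Gli1 HHIPCKO*, the log2 ratio being 0.55 (0.47 to 0.62), and in the *Ccn5*-*Ccl19* cluster at 847 and 1203 CPM, the log2 ratio being 0.51 (0.36 to 0.66). The 11 pericyte markers summed to 3230 and 4860 CPM in the *Ccn5*-*Ccl19* cluster, with 3 of 11 up, *Pdgfrb* (570 CPM) and *Cox4i2* (1223 CPM) the most abundant and none at 0, and their part in its *Itgb1* ratio was not tested. In pericyte-like cells *Itgb1* was at 2166 and 2426 CPM, and in alveolar fibroblast-like cells at 1071 and 1111 CPM, the log2 ratio being 0.05 (−0.03 to 0.14). The *Itgb1* ratio of DMF-like cells was thus under 2-fold but larger than that of alveolar fibroblast-like cells.

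*Itga1* encodes the α1 chain of a collagen receptor. It was most abundant in pericyte-like cells, at 2733 CPM (2663 to 2804) over both libraries, followed by *Ccn5*-*Ccl19* cells at 412 CPM, endothelial-like cells at 381 CPM, *Acta2*-*Timp4* cells at 191 CPM and ALMF-like cells at 127 CPM. Alveolar fibroblast-like cells, at 36.8 CPM, were low in it. In pericyte-like cells it was at 2778 CPM in the control and 2706 CPM in *Gli1 HHIPCKO*, the log2 ratio being −0.04 (−0.12 to 0.04), so no difference was detectable there at this depth. An *Itga1* UMI was found in 96.3% of control and 95.2% of *Gli1 HHIPCKO* pericyte-like cells.

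The α1 gene was higher in *Gli1 HHIPCKO* in some less abundant classes. In the *Rbp4*-*Dpep1* cluster it was at 17.3 CPM (20 UMIs) and 46.3 CPM (55 UMIs), the log2 ratio being 1.42 (0.66 to 2.24). Red cell-like cells were at 15.9 and 35.4 CPM of *Itga1*, so the levels of this cluster are not shown to lie above background. The 11 pericyte markers summed to 261 and 341 CPM in the cluster, with 2 of 11 up, and their part in the ratio was not tested. In *Acta2*-*Timp4* cells *Itga1* was at 130 and 252 CPM, the log2 ratio being 0.95 (0.51 to 1.42). In DMF-like cells it was at 44.9 and 71.1 CPM, the log2 ratio being 0.66 (0.38 to 0.96), and in ALMF-like cells at 120 and 161 CPM, the log2 ratio being 0.42 (0.11 to 0.72). The ALMF-like value turned to −0.32 with the libraries clustered separately, and the pooled cells were at 80.6 and 77.4 CPM, the log2 ratio being −0.06 (−0.22 to 0.10). The *Itga1* direction in myofibroblast-like cells thus depended on how they were divided.

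*Itga7* encodes the α7 chain, a laminin receptor of muscle. It was sparse, at 48.6 CPM (72 UMIs) in *Ccn5*-*Ccl19*, 39.9 CPM in *Acta2*-*Timp4*, 19.0 CPM in pericyte-like and 11.1 CPM in *Actg2*-*Cnn1* cells over both libraries. In alveolar fibroblast-like cells it had 1 UMI. The gene was thus sparse in each class. Its largest count was in AT2-like cells, 133 UMIs at 4.21 CPM, with fewer behind the ratios elsewhere. In pericyte-like cells it was at 36.0 CPM in control (28 UMIs) and 9.03 CPM in *Gli1 HHIPCKO* (12 UMIs), the log2 ratio being −1.99 (−3.11 to −0.97), and in the *Ccn5*-*Ccl19* cluster at 50.4 and 46.9 CPM. The pericyte-like value rests on 40 UMIs and did not pass the filter. Mesothelial-like cells, also under the filter, had 14 UMIs in the control and 1 in *Gli1 HHIPCKO*, the log2 ratio being −3.51 (−8.91 to −0.79).

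*Itga9* encodes the α9 chain, which binds tenascin C and SVEP1 among other ligands. It was the member whose order of classes was led by myofibroblast-like cells, at 358 CPM (345 to 371) in DMF-like and 313 CPM (296 to 331) in ALMF-like cells over both libraries. *Egr1*-*Fos* cells followed at 275 CPM, *Actg2*-*Cnn1* cells at 245 CPM and AT2-like cells at 182 CPM, while alveolar fibroblast-like cells were at 84.8 CPM and pericyte-like cells at 55.5 CPM. Myofibroblast-like cells thus lay above alveolar fibroblast-like and pericyte-like cells, the reverse of their order for *Npnt*. In DMF-like cells it was at 318 CPM in the control and 382 CPM in *Gli1 HHIPCKO*, the log2 ratio being 0.26 (0.15 to 0.38), and in ALMF-like cells at 319 and 287 CPM, the log2 ratio being −0.15 (−0.38 to 0.06).

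*Itga9* in alveolar fibroblast-like cells was at 125 CPM in the control and 74.5 CPM in *Gli1 HHIPCKO*, the log2 ratio being −0.75 (−1.01 to −0.48). In pericyte-like cells it was at 84.9 CPM (66 UMIs) and 38.4 CPM (51 UMIs), the log2 ratio being −1.14 (−1.70 to −0.60). Red cell-like cells were at 52.0 CPM of *Itga9* in the control and 75.2 CPM in *Gli1 HHIPCKO*. The *Gli1 HHIPCKO* levels of alveolar fibroblast-like and pericyte-like cells are thus not shown to lie above background. The pericyte-like value was past 2-fold at the clustering used, but −0.62 at resolution 0.5 and −0.58 at resolution 2, and −1.62 with the libraries clustered separately. Its size therefore depended on which cells were called pericyte-like, while its direction was the same in these alternatives.

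*Itga5* and *Itgav* encode α chains that bind fibronectin and other RGD ligands. *Itga5* was at most 95.2 CPM (33 UMIs), in endothelial-like cells, followed by *Acta2*-*Timp4* cells at 72.6 CPM and *Actg2*-*Cnn1* cells at 54.2 CPM, and was at 33.5 CPM in DMF-like and 30.8 CPM in ALMF-like cells. In the pooled myofibroblast-like cells it was at 32.1 CPM in the control and 31.3 CPM in *Gli1 HHIPCKO*, the log2 ratio being −0.04 (−0.29 to 0.22). In alveolar fibroblast-like cells it was at 33.3 and 19.5 CPM, the log2 ratio being −0.77 (−1.30 to −0.23). *Itga5* thus differed little in pooled myofibroblast-like cells and was lower in *Gli1 HHIPCKO* in alveolar fibroblast-like cells. The latter value rests on 44 UMIs in control and 101 in *Gli1 HHIPCKO*, and *Itga5* did not pass the filter in either group of cells.

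*Itgav* was at 160 CPM (143 to 178) in pericyte-like, 146 CPM (135 to 159) in ALMF-like and 138 CPM (122 to 155) in mesothelial-like cells over both libraries, which did not differ beyond their intervals, with 112 CPM in DMF-like and 80.0 CPM in alveolar fibroblast-like cells and 18.5 CPM in AT2-like cells. In DMF-like cells it was at 97.0 CPM in the control and 121 CPM in *Gli1 HHIPCKO*, the log2 ratio being 0.32 (0.12 to 0.52), and in the pooled cells at 116 and 123 CPM, the log2 ratio being 0.08 (−0.05 to 0.21). No class except the red cell-like cells had an *Itgav* interval wholly above or below 0 other than DMF-like cells.

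*Itgb3* and *Itgb5* encode β chains that, like β1, pair with αv. *Itgb3* was sparse, with 40.2 CPM (80 UMIs) in mesothelial-like, 22.0 CPM in alveolar fibroblast-like, 16.5 CPM in ALMF-like and 9.98 CPM in DMF-like cells, and passed the filter in mesothelial-like cells alone among the named classes. In alveolar fibroblast-like cells it was at 41.7 CPM in control (55 UMIs) and 17.0 CPM in *Gli1 HHIPCKO* (88 UMIs), the log2 ratio being −1.29 (−1.79 to −0.78). In DMF-like cells it was at 3.30 CPM (10 UMIs) and 13.9 CPM (72 UMIs), the log2 ratio being 2.07 (1.11 to 3.19). In the pooled myofibroblast-like cells it was at 8.75 and 15.3 CPM, the log2 ratio being 0.80 (0.37 to 1.24), and 0.18 with genes centred within each library. *Itgb3* was therefore lower in alveolar fibroblast-like cells and higher in DMF-like cells, on few UMIs, and under 2-fold once the myofibroblast-like cells were pooled. With each cell thinned to 2000 UMIs, 0.918% of control and 3.06% of *Gli1 HHIPCKO* DMF-like cells and 7.40% and 3.48% of alveolar fibroblast-like cells held a UMI, against 0.483% and 1.09% of red cell-like cells.

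*Itgb5* was at 248 CPM in pericyte-like cells, 225 CPM in *Lamc3*-*C1qtnf3* cells, 152 CPM in the alveolar fibroblast-like class, 126 CPM in DMF-like and 87.6 CPM in ALMF-like cells over both libraries, and at 2.09 CPM in AT2-like cells. It was thus a stromal gene in these libraries, nearly absent from AT2-like cells. In ALMF-like cells it was at 79.4 CPM in the control and 125 CPM in *Gli1 HHIPCKO*, the log2 ratio being 0.65 (0.29 to 1.00), and in pooled myofibroblast-like cells at 94.0 and 137 CPM, the log2 ratio being 0.54 (0.41 to 0.67). In pericyte-like cells it was at 210 and 271 CPM.

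**Figure D3:**
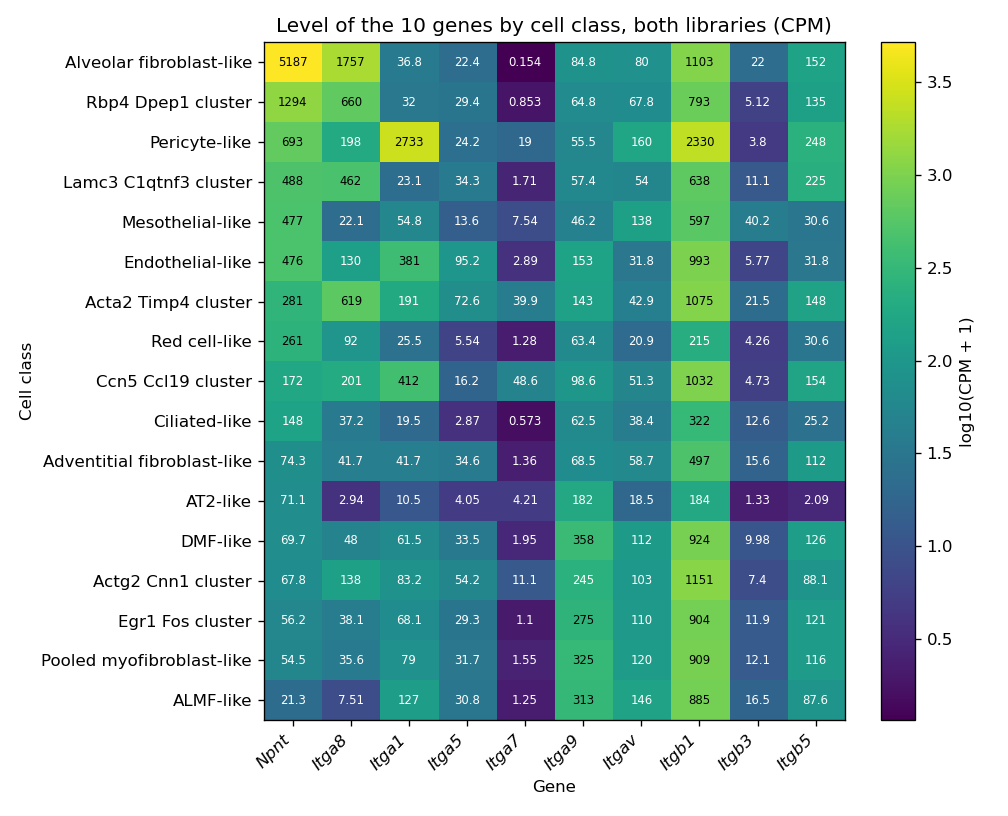
Level of each of the 10 genes in each class and cluster over both libraries, as log10(CPM + 1), 1 mouse per condition. *Itga1* and *Itgb1* are highest in pericyte-like cells, at 2733 and 2330 CPM over both libraries, *Itga9* in DMF-like cells, at 358 CPM, and *Npnt* and *Itga8* in alveolar fibroblast-like cells, at 5187 and 1757 CPM.

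Over the members that passed the filter, the median log2 ratio was 0.55 in DMF-like cells, where the median over all genes tested was 0.04, and 0.36 in the pooled cells, where it was −0.01. In ALMF-like cells the medians were 0.20 and 0.03, in alveolar fibroblast-like cells −0.06 and 0.03 and in pericyte-like cells 0.08 and 0.05. Mesothelial-like cells had medians of 0.45 and 0.01, *Ccn5*-*Ccl19* cells 0.33 and 0.02 and adventitial fibroblast-like cells 0.25 and 0.03. Since the members were chosen with ratios in these cells known, nothing is read from these medians.

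Of the 17 other integrin subunit genes, at most 3 passed the filter in any class or cluster, and 0 were past 2-fold in any of them. In ALMF-like, DMF-like, alveolar fibroblast-like and adventitial fibroblast-like cells 0 of the 17 passed the filter, so the integrin subunits read there are those of the members. A list of 7 nephronectin relatives and basement membrane anchors, of which 6 were found in the files, had few genes past the filter. *Frem2* was up in the *Actg2*-*Cnn1* cluster, at 10.7 CPM in the control and 52.8 CPM in *Gli1 HHIPCKO*, the log2 ratio being 2.31, and *Frem1* in the *Lamc3*-*C1qtnf3* cluster, the log2 ratio being 1.03. In alveolar fibroblast-like cells 0 of 2 passed 2-fold (2.33% of all genes), with *Fras1*, which encodes a basement membrane protein, at 52.3 and 26.3 CPM.

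A list of 14 RGD ligands of the αv, α5 and α8 integrins had 2 of 11 up in DMF-like cells (3.53% of all genes past 2-fold) and 2 of 11 in pooled myofibroblast-like cells (2.99%), with none down. These were *Fn1*, the gene of fibronectin, at 147 CPM in the control and 412 CPM in *Gli1 HHIPCKO* DMF-like cells, the log2 ratio being 1.49, and *Ltbp1*, which anchors latent TGF-β, at 37.0 and 81.0 CPM, the log2 ratio being 1.13. *Fn1* was also up in endothelial-like cells, at 212 and 1868 CPM, ciliated-like cells, at 212 and 585 CPM, *Egr1*-*Fos* cells, at 80.1 and 273 CPM, pericyte-like cells, at 37.3 and 91.8 CPM, and *Lamc3*-*C1qtnf3* cells, at 695 and 1504 CPM. In pericyte-like cells 7 of 12 alveolar fibroblast markers were up and 1 down, their sum being 2624 and 2957 CPM with *Hsd11b1* the most abundant, at 1494 and 1632 CPM, and *C7* and *Wnt2* at 0 in the control, and their part in the result was not tested. In red cell-like cells *Fn1* was at 276 and 993 CPM and *Ltbp1* at 11.8 and 32.0 CPM. The *Fn1* levels of DMF-like and pericyte-like cells were thus under that of red cell-like cells in each library, and the *Ltbp1* level of DMF-like cells above it, and *Fn1* is itself among the leading genes of alveolar fibroblast-like cells. In ALMF-like cells 1 of 10 was up (2.85% of all genes past 2-fold), *Tgfb2*, at 97.8 and 204 CPM. Of the 9 that passed the filter in alveolar fibroblast-like cells, 0 were past 2-fold (2.33% of all genes). *Tnc*, the gene of tenascin C, was at 488 and 256 CPM there. In the *Actg2*-*Cnn1* cluster *Tgfbi* was up, at 1015 and 2043 CPM, and *Postn* down, at 936 and 313 CPM. *Postn* was up in the *Rbp4*-*Dpep1* cluster, at 39.8 and 99.2 CPM, and *Tnc* down in the *Ccn5*-*Ccl19* cluster, at 279 and 128 CPM, and in ciliated-like cells, at 77.3 and 36.3 CPM.

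Of 14 ligands of the α1, α7 and α9 integrins, 2 of 11 were up in DMF-like cells, where 3.53% of all genes were past 2-fold. These were the laminin genes *Lama2*, at 165 CPM in the control and 386 CPM in *Gli1 HHIPCKO*, and *Lamb1*, at 135 and 329 CPM. In ALMF-like cells 1 of 10 was up (2.85% of all genes past 2-fold), *Lama2*, at 155 and 362 CPM. The same gene was up in pooled cells, at 147 and 355 CPM, and in red cell-like cells, at 25.2 and 110 CPM. Its DMF-like and ALMF-like levels lay above those of red cell-like cells in each library. *Lamb1* was likewise up at least 2-fold in red cell-like cells, where 25.4% of all genes were past 2-fold. In mesothelial-like cells 1 of 12 was up (3.0% of all genes past 2-fold), the α9 ligand *Svep1*, at 10.0 and 54.9 CPM. In AT2-like cells 1 of 10 was down (1.09% of all genes past 2-fold), *Lamb1*, at 34.7 and 15.6 CPM. The AT2-like cells came largely from different clusters in each library. In alveolar fibroblast-like, adventitial fibroblast-like and pericyte-like cells 0 of 12, 0 of 12 and 0 of 10 were past 2-fold. Of all genes 2.33%, 3.23% and 1.6% were past it there.

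The list of 16 adaptors that link integrins to actin had 1 of 15 up in DMF-like cells, where 3.53% of all genes were past 2-fold. This was *Tln2*, which encodes a talin, at 46.9 CPM in the control and 98.5 CPM in *Gli1 HHIPCKO*. In the *Actg2*-*Cnn1* cluster 1 of 16 was up (5.24% of all genes past 2-fold), again *Tln2*, at 22.9 and 106 CPM, the log2 ratio being 2.21. *Lims2* was up in adventitial fibroblast-like cells, at 19.1 and 40.9 CPM. In ALMF-like, alveolar fibroblast-like and pericyte-like cells 0 of 14, 0 of 12 and 0 of 13 were past 2-fold, where 2.85%, 2.33% and 1.60% of all genes were. *Gdnf*, a growth factor gene known as a target of α8β1 in the kidney, passed the filter in no class, at 3.65 CPM (30 UMIs) and 11.9 CPM (101 UMIs) in the pooled cells.

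The genes most like a member were ranked by Pearson's r of log2(CPM + 1) over 20 points, 10 named classes in each library, among 11682 genes. For *Npnt*, with *Itga8* left out of the ranking, they were *Nuak1* (r = 0.83), *Mettl21e* (0.817), *Nrp2* (0.805), *Macf1* (0.793) and *Serinc3* (0.792). For *Itga8* they were *Chst3* (0.922), *Cacna1d* (0.92), *Macf1* (0.91), *Cd40* (0.90) and *Specc1l* (0.899). *Npnt* and *Itga8* had an r of 0.829 with each other and a Spearman's rho of 0.809. That r lies above those of all genes listed for *Npnt* except *Nuak1*. *Macf1*, which encodes a linker of microtubules and actin, stood in both lists by Pearson's r and in neither of the leading 5 by Spearman's rho, which kept 2 of 5 genes for each member and had *Mettl21e* in both. The points share libraries and depths and the ranking was chosen for its top, so these values describe likeness only.

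In GRCm38 *Npnt* (ENSMUSG00000040998) lies on chr3:132881745-132950291 and *Itga8* (ENSMUSG00000026768) on chr2:12106632-12301922, both on the minus strand. Of the other members *Itgav* also lies on chromosome 2, and the rest lie on chromosomes 8 to 11, 13, 15 and 16. Promoter windows of 300 bases from RefSeq on GRCm38.p6 were found for 8 of the 10 members, with no entry for *Itga7* and *Itgb3*. The *Itga9* entry lies inside the annotated gene, and *Npnt* has a further entry that starts downstream. The windows of *Npnt* and *Itga8* are shown since these genes had like levels across the classes and since *Hhip* acts on the Hedgehog pathway, whose GLI factors bind GACCACCCA. Capitals mark matches on either strand to its core CCACCC, to the GC box GGGCGG and to the E-box CANNTG.
Npnt: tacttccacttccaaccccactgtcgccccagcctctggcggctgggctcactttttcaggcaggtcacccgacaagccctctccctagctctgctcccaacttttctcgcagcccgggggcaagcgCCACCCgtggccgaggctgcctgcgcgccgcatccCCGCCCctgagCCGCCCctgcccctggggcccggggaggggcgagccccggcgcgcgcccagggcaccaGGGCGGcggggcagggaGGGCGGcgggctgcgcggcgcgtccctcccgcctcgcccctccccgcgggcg
Itga8: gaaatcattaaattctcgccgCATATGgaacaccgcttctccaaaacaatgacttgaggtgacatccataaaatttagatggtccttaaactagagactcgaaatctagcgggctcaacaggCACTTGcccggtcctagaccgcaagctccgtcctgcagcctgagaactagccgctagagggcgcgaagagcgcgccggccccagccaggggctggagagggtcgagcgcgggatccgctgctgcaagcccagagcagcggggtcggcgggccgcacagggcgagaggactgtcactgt

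The *Npnt* window, chr3:132950242-132950541 on the minus strand, has a GC content of 76.7%, with 1 match to CCACCC, 4 to GGGCGG and 0 to CANNTG. The *Itga8* window, chr2:12301895-12302194 on the minus strand, has a GC content of 59.0%, with 2 matches to CANNTG and 0 to CCACCC and GGGCGG. These windows thus share none of these motifs, while the further *Npnt* entry, chr3:132949765-132950064, has 3 matches to CANNTG and 0 to the others. The median GC content of all 32851 promoters is 52.7%. GACCACCCA, which contains CCACCC, was found in 0 of the 8 members and in 0.253% of all promoters. Of the members, 1 held CCACCC (31.5% of all promoters), 6 held CANNTG (72.3%), *Npnt* through its further entry alone, 5 held GGGCGG (35.7%) and 0 held the TATA box TATAAA (13.6%). A match is a description of letters in the window, not of a bound site.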

How the data were processed

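Per the file headers, the authors made the counts with CellRanger 6.1.0, while the sample labels name version 3.1.0, and they deposited raw UMI counts per gene and cell on mm10. Cells with 200 to 6000 genes passed if mitochondrial UMIs made up no more than 10%, and were scaled to 10000 UMIs, log-transformed and clustered on 2000 variable genes, 30 components and 20 neighbours at Leiden resolution 1, and stromal clusters were clustered again. Integrin genes, *Npnt*, *Egfl6* and *Hhip* were held out. A name needed a marker score of 0.4, 3 markers in 10% of the cells, a marker among the 10 leading genes with no other class having more there, a next class under 0.7 of the best and each other lineage under 0.4 of it. Clusters of the stromal clustering took stromal names alone. The 6 unnamed stromal clusters given were those whose best score was stromal, with at least 50 cells in each library and a median depth of 0.5 to 1.5 times that of stromal clusters. These thresholds were set and revised after the clusters and their *Npnt* and *Itga8* levels had been seen. The members and lists were chosen with earlier results of these data known, and the fibroblast marker lists come largely from the study's own table.

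UMIs were summed by class and library. Intervals are exact Poisson for levels, exact conditional binomial for ratios and exact binomial for shares. With 1 mouse per condition no p-value is given. Named genes are the members in each class with at least 50 cells in each library, the genes of the 6 fixed lists, and the 5 genes most like *Npnt* and *Itga8*. The list genes given by name were chosen after their values were seen, and not all past 2-fold are named. *Hhip*, *Xist* and leading genes of clusters were also named. Doublets were left out only in an alternative, by scores against simulated doublets. The procedure was tested on simulated data. Alternatives changed the cell filter, the scaling, the average, the resolution, the joint clustering, the genes held out, thinning, the fold and the detection filter. Low-depth clusters left out, red cell-like levels subtracted, pooled myofibroblast-like cells, cells with few alveolar markers and background classes without doublets were added after seeing the data. Gene positions come from GENCODE on GRCm38, where 32158 genes matched. The tools were leidenalg 0.10.2, igraph 0.11.9, scikit-learn 1.9.0, scipy 1.17.1, numpy 2.4.6 and pandas 2.3.3 in Python 3.11.15, with figures by matplotlib 3.10.9.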

Additional observations from a re-analysis of the deposited data

Results flagged for a closer look

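In a pair of genes the direction of the ratio was opposite in different cells, with both intervals wholly past 1.5-fold and at least 50 UMIs in each. The minimum of UMIs and the margin were set after values had been seen. *Itga8* had a log2 ratio of 3.44 in the *Egr1*-*Fos* cluster and −1.67 in the *Actg2*-*Cnn1* cluster, a gap of 5.10. *Itgb3* had a log2 ratio of 2.07 in DMF-like cells and −1.29 in alveolar fibroblast-like cells, a gap of 3.36. With genes centred within each library the *Itgb3* ratios were 1.08 in DMF-like and −0.84 in alveolar fibroblast-like cells. In pooled myofibroblast-like cells the ratio was 0.80, and 0.18 when centred. Neither difference was tested. The *Itga8* shares of *Egr1*-*Fos* cells, 0.835% in control and 8.22% in *Gli1 HHIPCKO* after thinning, lie under those of red cell-like cells.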

How the results depend on the processing

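With 1 mouse per condition, no interval covers differences between mice, and in ALMF-like cells of the *Gli1 HHIPCKO* library *Npnt* rests on 26 UMIs and *Itga8* on 12. In the named classes and the pooled cells, no ratio past 2-fold changed sign under the alternatives, which were not run for the unnamed clusters. The log2 ratio of *Npnt* was between 1.70 and 2.51 in pooled myofibroblast-like cells, 1.11 and 2.62 in DMF-like cells, and 0.92 and 3.12 in ALMF-like cells. For *Itga8* these were 2.24 and 3.15, 1.51 and 2.80, and 1.5 and 4.53. The pooled values were 1.70 and 2.45 at resolution 2 and 1.74 and 2.24 with genes centred within libraries, and at resolution 2 the DMF-like values were 1.63 and 2.07. With libraries clustered separately *Npnt* and *Itga8* were at 3.12 and 4.53 in ALMF-like and 1.11 and 1.51 in DMF-like cells, and *Npnt* at 0.013 in alveolar fibroblast-like cells. Centring gave 0.34 and 0.65 in alveolar fibroblast-like cells, and subtracting the red cell-like level, added after seeing the data, −0.15 and 0.20. It turned *Npnt* to −0.38 in mesothelial-like, −0.86 in pericyte-like and −1.21 in endothelial-like cells (2.43 with libraries clustered separately) and *Itga8* to −1.62 in pericyte-like cells. The *Npnt* level subtracted rests largely on few red cell-like cells, with 71.9% of its UMIs in 5 control and 73.9% in 15 *Gli1 HHIPCKO* cells. That subtraction gave no value for these genes in ALMF-like, DMF-like or pooled cells, which lay under the red cell-like level in at least 1 library. At a fold of 1.5, 1 member was past it in ALMF-like, adventitial and alveolar fibroblast-like cells (13.3%, 15.3% and 10.5% of all genes) and 3 of 6 in mesothelial-like cells (16.0%), against 0 in each. With detection in 5% of cells, 1 of 9 was past 2-fold in alveolar fibroblast-like cells (3.47% of all genes), against 0, and 2 of 5 in ciliated-like cells (2.17%), against 1. The cause of these shifts was not tested.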
